A study of Mus musculus with 20 samples.

Results

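Transcripts of Paneth cell granules were followed here: the alpha-defensins and 9 other secreted proteins, 30 genes in all. The members were every gene entry whose symbol starts with Defa and a digit or a hyphen, together with AY761184, Lyz1, Lyz2, Mptx1, Mptx2, Clps, Mmp7, Ang4, Itln1 and Pnliprp2. Of them 21 were alpha-defensin entries. Each of the 30 was held once among the 11779 entries of the GFP-low table and once among the 11746 of the GFP-high table. All 30 passed the filter on low counts in every comparison.

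RNA was sequenced from small-intestinal crypt epithelium of C57BL/6J mice aged 8 weeks, all carrying Lgr5-GFP, a reporter of crypt stem cells. The 20 libraries formed 4 groups of 5: KO GFP-low and WT GFP-low cells, then KO GFP-high and WT GFP-high cells, where KO stands for Itgb7-/- and WT for Itgb7+/+. Itgb7 encodes integrin beta 7, a subunit of the receptors that bring lymphocytes to the gut. Both populations came from each mouse by the same gate, which kept live EpCAM+ cells and left out those with CD45, TER119 or CD31. Per the labels, GFP-high cells are stem cells and GFP-low cells are transit-amplifying (TA) cells. The gate named no Paneth cell marker, so the libraries hold whatever Paneth cells or Paneth cell RNA the gates let through. Library totals ran from 20900412 to 27838403 counts. Itgb7 was in neither table, so the genotype could not be checked on its own transcript. The stem cell label could be checked in part: all 12 stem cell genes examined were lower in GFP-low cells, in both genotypes. That list includes Lgr5, whose reporter set the gates. The TA label of GFP-low cells was not checked. KO mice were numbered 2 to 6 and WT mice 1, 3, 6, 7 and 8. Where a number recurs in both genotypes it names different animals.

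Paneth cells sit at the base of small-intestinal crypts between the stem cells and release granules of antimicrobial proteins into the crypt lumen. Mouse alpha-defensins, also called cryptdins, are made as precursors, and in mice the metalloprotease Mmp7 cuts them into the active peptides. Lysozyme, the ribonuclease Ang4, lectins and pentraxins are stored with them, and in mice Wnt signals are known to maintain the Paneth cell programme.

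The 21 alpha-defensins lay in 1 cluster, chr8:21025545-21735471 of GRCm38 (GENCODE release M21), spanning 709.9 kb, with 19 genes on the plus strand and 2, AY761184 and Defa29, on the minus strand. Symbols of 29 members matched GENCODE directly, and Defa-rs7 was matched through RefSeq, where it is a synonym of Defa31. The cluster genes are near copies of each other. Of 210 defensin pairs, 4 had identical coding sequences (Defa-rs7 and Defa23, Defa17 and Defa3, Defa2 and Defa33, Defa20 and Defa32), and 25 pairs matched at 96% of coding bases or more. Of the 21 defensins, 17 shared over 50% of their 50-base stretches with another gene, and 5 shared all of them. Reads from such stretches cannot be assigned to 1 copy by their sequence. Single defensin values are uncertain, and sums over defensins are given beside them.

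Coding sequences of the 3 most abundant defensin entries are shown to make this visible, with that of Defa26, the member with the largest fitted KO over WT difference. They run 5′ to 3′ over 279 bases without the stop codon, from GENCODE M21. Capitals in Defa17, Defa23 and Defa26 mark the bases that differ from Defa24. There were 12 such bases in Defa17, 12 in Defa23 and 30 in Defa26.
Defa24: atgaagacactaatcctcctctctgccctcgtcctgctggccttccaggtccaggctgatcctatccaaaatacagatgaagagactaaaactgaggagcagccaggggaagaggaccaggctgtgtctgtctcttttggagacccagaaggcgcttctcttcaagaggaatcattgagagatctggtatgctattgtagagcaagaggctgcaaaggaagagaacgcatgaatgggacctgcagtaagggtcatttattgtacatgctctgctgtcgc
Defa17: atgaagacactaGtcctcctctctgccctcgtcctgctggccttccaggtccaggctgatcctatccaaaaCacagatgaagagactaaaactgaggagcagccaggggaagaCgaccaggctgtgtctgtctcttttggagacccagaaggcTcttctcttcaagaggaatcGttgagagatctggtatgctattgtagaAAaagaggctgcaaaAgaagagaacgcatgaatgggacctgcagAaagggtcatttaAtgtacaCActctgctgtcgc
Defa23: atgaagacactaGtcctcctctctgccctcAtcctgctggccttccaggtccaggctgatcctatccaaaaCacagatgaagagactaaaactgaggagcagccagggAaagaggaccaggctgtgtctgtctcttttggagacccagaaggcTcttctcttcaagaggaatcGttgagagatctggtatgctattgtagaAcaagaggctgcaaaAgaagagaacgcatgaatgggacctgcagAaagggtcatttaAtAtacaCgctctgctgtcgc
Defa26: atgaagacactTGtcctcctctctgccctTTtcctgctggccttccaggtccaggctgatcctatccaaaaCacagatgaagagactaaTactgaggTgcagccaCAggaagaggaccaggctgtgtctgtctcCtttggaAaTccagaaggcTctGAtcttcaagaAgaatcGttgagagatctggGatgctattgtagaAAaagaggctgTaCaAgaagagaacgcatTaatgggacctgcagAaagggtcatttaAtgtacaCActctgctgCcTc
Defa24 lies at chr8:21734494-21735471, Defa17 at chr8:21655780-21656735, Defa23 at chr8:21055047-21056016 and Defa26 at chr8:21618183-21618972, all on the plus strand.

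Linking entries that matched at 96% or more gave 8 sequence groups. Entries could be linked through another entry, so not every pair in a group reached 96%. The Defa24 group held Defa24, Defa17, Defa23, Defa30, Defa3 and Defa-rs7. Within it Defa24 reached the cut only with Defa30 (98.57%) and matched the others at 95.7%. The Defa20 group held Defa20, Defa2, Defa32 and Defa33. The Defa36 group held Defa36, Defa5, Defa34 and Defa35. Defa21 and Defa22 formed a group, AY761184 and Defa29 another, and Defa26, Defa27 and Defa28 stood alone. The Defa20 group has a longer coding sequence of 285 bases, and AY761184 and Defa29 have 348. The end of AY761184 is shown beside that of Defa24 because cysteines give alpha-defensins their fold. In both, the last 150 coding bases are printed with cysteine codons in capitals, and AY761184 had 10 there against 6 in Defa24.
AY761184 (chr8:21702519-21703645, minus strand): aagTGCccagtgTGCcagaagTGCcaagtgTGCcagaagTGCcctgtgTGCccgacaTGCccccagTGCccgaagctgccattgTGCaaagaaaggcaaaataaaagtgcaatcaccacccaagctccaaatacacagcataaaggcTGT
Defa24: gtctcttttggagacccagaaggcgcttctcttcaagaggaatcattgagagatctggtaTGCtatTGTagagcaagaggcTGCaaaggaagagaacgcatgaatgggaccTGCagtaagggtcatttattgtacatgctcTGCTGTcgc
Of the 21 defensins, 18 had 6 cysteine codons in the whole coding sequence, Defa28 had 7, and AY761184 and Defa29 had 11. AY761184 and Defa29 were counted as alpha-defensins by the membership rule alone. Together they held 6.34 to 9.59% of the summed defensin counts in every library.

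Promoters were examined because the members moved together between populations. RefSeq promoters (GRCm38.p6) were matched for 19 members, 11 of them defensins, and the 250 bases before each start were searched. The first motif was TATAAA on the gene's strand. The second was ATCAAAG, the core bound by TCF factors of the Wnt pathway, on both strands (CTTTGAT on the other). ATCAAAG occurred in 11 of 11 defensin promoters and more than once in 8, against 3.21% and 0.0822% of all 32851 promoter windows. TATAAA occurred in 10 of 11 defensin promoters, against 7.59% of all. Among the 9 windows of the other members, which include a pair for Mmp7, 1 held ATCAAAG and 1 held TATAAA, both of Mmp7. Defensin promoters are near copies, so their matches are not separate observations, and a match is not a bound site. Promoters of Defa20 and Defa23 are shown as examples from different sequence groups, with both motifs in capitals.
Defa20 (chr8:21509008-21509257, plus strand): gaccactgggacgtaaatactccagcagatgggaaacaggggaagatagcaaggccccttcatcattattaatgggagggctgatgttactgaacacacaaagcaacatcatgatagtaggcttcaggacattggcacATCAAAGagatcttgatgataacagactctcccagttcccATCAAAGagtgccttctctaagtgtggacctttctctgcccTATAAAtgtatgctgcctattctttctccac
Defa23 (chr8:21054790-21055039, plus strand): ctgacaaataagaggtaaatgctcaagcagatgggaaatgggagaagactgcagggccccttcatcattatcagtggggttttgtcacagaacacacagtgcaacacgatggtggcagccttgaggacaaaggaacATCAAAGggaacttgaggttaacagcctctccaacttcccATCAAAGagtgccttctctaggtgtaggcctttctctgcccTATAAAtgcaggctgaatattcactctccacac

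Levels per length differed widely between members. CPM values (counts scaled to library size, with TMM factors over all 20 libraries) were divided by exon length in kilobases and averaged over the libraries. Defa24 was highest at 65509 CPM per kb. Itln1 followed at 21641, Defa17 at 19634, Defa23 at 11055 and Lyz1 at 8814 CPM per kb. The lowest were Mptx1 at 54.5, Lyz2 at 15.8 and Defa28 at 10.5 CPM per kb.

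The comparison of GFP-low with GFP-high cells asked how much Paneth granule RNA each sorted population carried. All 30 members were higher in GFP-low cells, in KO and in WT mice alike. Summed over the 21 entries, defensins made up 2.27, 8.50, 9.40, 6.92 and 9.60% of all counts in GFP-low cells of KO mice 2, 3, 4, 5 and 6. They made up 1.54, 2.68, 4.23, 3.98 and 3.19% in GFP-high cells of the same mice. Every KO mouse was higher in its GFP-low library. Mouse 2 was lowest in both populations. In WT mice 1, 3, 6, 7 and 8 the shares were 7.07, 19.7, 5.03, 9.65 and 18.4% in GFP-low cells. In their GFP-high cells the shares were 5.30, 1.57, 2.92, 1.53 and 5.00%. Again every mouse was higher in GFP-low cells, but by very different amounts. The ratio was 12.6 in WT mouse 3 and 6.32 in WT mouse 7, against 1.33 in WT mouse 1. In KO mice it ran from 1.47 (mouse 2) to 3.17 (mouse 3).

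**Figure D1:**
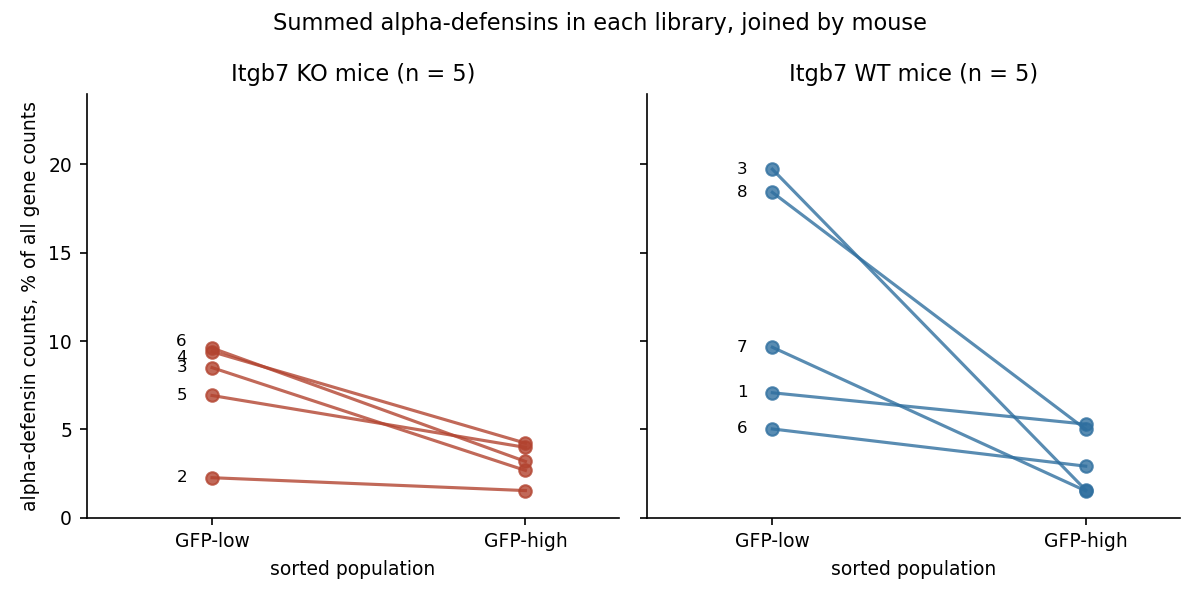
Share of all gene counts (percent, vertical axis) taken by the 21 summed alpha-defensins in GFP-low and GFP-high libraries of 5 KO mice (left) and 5 WT mice (right); each line joins the 2 libraries of 1 numbered mouse. Every line falls toward GFP-high, and WT mice 3 and 8 stand highest in GFP-low cells at 19.7% and 18.4%.

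The mean share was 7.34% ± 3.02 in GFP-low against 3.12% ± 1.08 in GFP-high cells of KO mice (SD, n = 5 each), and 12.0% ± 6.69 against 3.26% ± 1.82 in WT mice. Fitted as 1 summed feature with edgeR, the log2 fold change of GFP-low over GFP-high was 1.52 ± 0.36 (SE) in KO and 2.32 ± 0.52 in WT mice. With the replicate block, which pairs both libraries of a mouse, it was 1.42 ± 0.17 in KO and 2.23 ± 0.46 in WT mice. All 30 members together took 3.73 to 15.7% of counts in KO GFP-low, 8.13 to 28.3% in WT GFP-low, 2.82 to 6.86% in KO GFP-high and 2.39 to 8.97% in WT GFP-high libraries. In bulk RNA of this kind, fewer cells of a type and less RNA per cell cannot be told apart.

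Gene by gene, edgeR's quasi-likelihood test called 30 of 30 members higher in GFP-low cells of KO mice at an adjusted p under 0.05 (Benjamini-Hochberg over all genes). Over all 11294 genes tested, 26.2% were called higher. In WT mice 30 of 30 were called, against 22.0% of 11293 genes. The members' median log2 fold change was 1.55 in KO and 2.27 in WT mice, against -0.01 for all genes in each. All 30 were higher in GFP-low cells of all 5 KO mice and of all 5 WT mice, as were 29.1% and 26.5% of all genes. Defensin entries share reads, so the 30 are not separate observations. Adjusted p over the members ran from 0.000226 to 0.0353 in KO and from 2.76e-05 to 0.0148 in WT mice. Leaving out 1 library at a time left 28 to 30 members called in KO and 30 in WT mice. Leaving out the GFP-low or the GFP-high library of KO mouse 3 gave the 28. These fits, and the single-gene values between populations that follow, did not pair the libraries of a mouse. Pairing them kept 30 of 30 members called in each genotype.

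Defa24, the most abundant defensin entry, had 8494, 34149.5, 42470.1, 28396 and 37243 CPM in GFP-low cells of KO mice 2, 3, 4, 5 and 6, against 5351, 8980.2, 15591, 12842 and 9986 CPM in their GFP-high cells. In WT mice 1, 3, 6, 7 and 8 it had 28917, 100315, 21279, 40452 and 93758 CPM in GFP-low and 19904, 5143, 11120.1, 5452 and 19122 CPM in GFP-high cells. The KO populations overlapped through mouse 2, whose GFP-low library lay below the GFP-high libraries of mice 3 to 6, while the WT populations did not overlap. The log2 fold change was 1.53 ± 0.36 in KO (adjusted p = 0.00294) and 2.23 ± 0.51 in WT mice (adjusted p = 0.00393). Defa17 had 2158, 9114, 10801, 7969 and 10584 CPM in KO GFP-low, 6844, 28892, 5299, 12816 and 31886 in WT GFP-low, 1329, 2352, 3944, 3546 and 2709 in KO GFP-high and 4679, 1425, 2922, 1445 and 5179 in WT GFP-high libraries, in the same order of mice. Defa23 had 1270.2, 4578, 6444, 4204 and 5757 CPM in KO GFP-low, 4807, 17308, 3923, 7010.3 and 15998 in WT GFP-low, 960.3, 1419, 2994, 1929.8 and 1537 in KO GFP-high and 3510.3, 645, 2276, 1078 and 3226 in WT GFP-high libraries. Both followed Defa24: WT mice 3 and 8 were highest in GFP-low cells and KO mouse 2 was lowest there. Their log2 fold changes were 1.56 ± 0.37 and 1.35 ± 0.37 in KO mice, and 2.45 ± 0.55 and 2.19 ± 0.52 in WT mice.

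The other 18 defensin entries ran alongside. In KO mice the defensin log2 fold changes lay between 1.26 ± 0.46 (Defa32) and 1.86 ± 0.47 (Defa34). Between them lay Defa2, Defa3, Defa5, Defa20, Defa21, Defa22, Defa27, Defa28, Defa29, Defa30, Defa33, Defa35, Defa36, Defa-rs7 and AY761184 (standard errors over all 30 members 0.32 to 0.52). In WT mice they lay between 1.92 ± 0.50 (Defa32) and 3.21 ± 0.67 (Defa26). Defa26, highest in that order, had 111, 756, 82.7, 382 and 884 CPM in GFP-low cells of WT mice 1, 3, 6, 7 and 8. It had 30.2, 178, 184, 118 and 159 CPM in GFP-low cells of KO mice 2, 3, 4, 5 and 6. Defa26 stood at 17.5, 37.5, 67.0, 50.9 and 32.3 CPM in KO and 70.8, 15.2, 42.5, 27.9 and 83.1 CPM in WT GFP-high libraries. Its WT populations overlapped through mouse 6, and its KO populations through mouse 2.

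**Figure D2:**
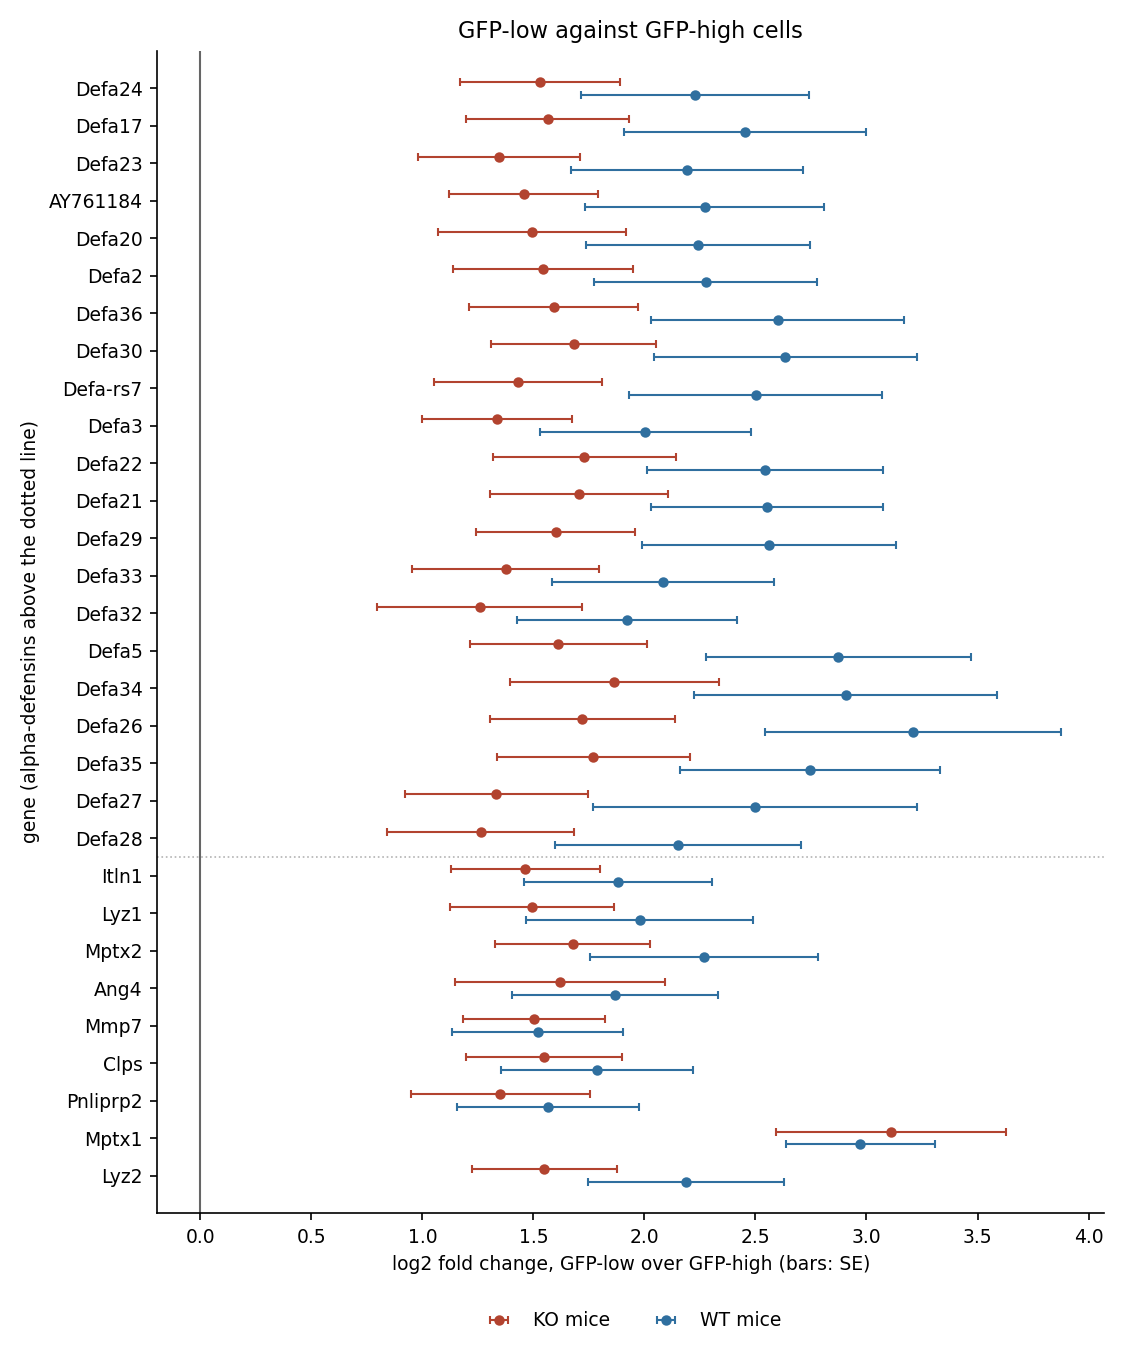
Log2 fold change of GFP-low over GFP-high cells (horizontal axis, bars show SE) for the 30 members, KO mice above WT mice in each row, from edgeR fits on 10 libraries each. All 60 estimates lie right of 0, and Mptx1 stands apart from the other members in KO mice at 3.11.

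Among the enzymes, Lyz1, the lysozyme of Paneth cell granules that cuts bacterial cell walls (chr10:117287797-117292868), had 3711, 16387, 20839, 10989 and 16315 CPM in KO GFP-low and 2564, 3932, 6531, 6539.6 and 4891 CPM in KO GFP-high cells. In WT mice it had 17433, 31190.2, 6279, 13733 and 35004 CPM in GFP-low and 10518, 2963, 3306, 2090.4 and 7437 CPM in GFP-high cells. Populations overlapped in both genotypes, and the log2 fold change was 1.49 ± 0.37 in KO and 1.98 ± 0.51 in WT mice (adjusted p = 0.00408 and 0.00768). Ang4, a ribonuclease with antimicrobial activity in mice (chr14:51763878-51773590), had 389, 1588, 3369, 1974 and 1641 CPM in KO GFP-low and 269, 400.0, 1138, 756 and 378 CPM in KO GFP-high cells. In WT mice it had 1655, 3392, 2304, 1555 and 3927 CPM in GFP-low and 1002, 213, 1224, 254 and 820.2 CPM in GFP-high cells. WT populations did not overlap, KO populations did through mouse 2, and the log2 fold change was 1.62 ± 0.47 in KO and 1.87 ± 0.46 in WT mice. Mmp7, the protease that processes defensins (chr9:7692090-7699585), had 222, 700.0, 855, 831 and 841 CPM in KO GFP-low and 152, 179.6, 262, 378 and 259 CPM in KO GFP-high cells. In WT mice it had 573, 1146, 464, 451 and 1339 CPM in GFP-low and 334, 252, 275, 101 and 425 CPM in GFP-high cells. Its log2 fold change, 1.50 ± 0.32 in KO and 1.52 ± 0.38 in WT mice, was the smallest of the 30 in WT mice.

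Among the carbohydrate-binding proteins, Itln1, an intelectin that binds microbial sugars (chr1:171518122-171535294), had 8273, 26643, 38886, 30643 and 41192 CPM in KO GFP-low and 7364, 8405, 14523, 13072 and 9969 CPM in KO GFP-high cells. In WT mice it had 37860.3, 72449, 20185, 31894 and 69524 CPM in GFP-low and 19923, 7938, 13154, 4776 and 17176 CPM in GFP-high cells. Itln1 is known from both Paneth and goblet cells, and its log2 fold change was 1.46 ± 0.34 in KO and 1.88 ± 0.42 in WT mice. Mptx2, a mucosal pentraxin used as a Paneth cell marker (chr1:173274382-173277777), had 908, 3351, 4624, 2843 and 4056 CPM in KO GFP-low and 637, 761, 1464, 1230.5 and 896 CPM in KO GFP-high cells. In WT mice it had 2331, 8599.7, 1764, 2295 and 6995 CPM in GFP-low and 1472, 548, 1043, 311 and 1194 CPM in GFP-high cells. WT populations did not overlap, and the log2 fold change was 1.68 ± 0.35 in KO and 2.27 ± 0.51 in WT mice. Mptx1, its relative (chr1:174330518-174332873), was far scarcer, at 29.9, 57.4, 138, 130.0 and 51.2 CPM in KO GFP-low and 4.18, 4.65, 9.31, 23.5 and 5.72 CPM in KO GFP-high cells. In WT mice Mptx1 had 55.4, 41.4, 76.2, 72.0 and 125 CPM in GFP-low and 11.1, 9.59, 7.89, 4.26 and 14.3 CPM in GFP-high cells. Its populations did not overlap in either genotype. Its log2 fold change, 3.11 ± 0.52, was the largest of the 30 in KO mice (adjusted p = 0.000226), and in WT mice it was 2.97 ± 0.33 (adjusted p = 2.76e-05).

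The remaining members were a lipase pair and the second lysozyme. Clps, colipase, a cofactor of pancreatic lipase, had log2 fold changes of 1.55 ± 0.35 in KO and 1.79 ± 0.43 in WT mice. Pnliprp2, a pancreatic lipase-related protein, had 1.35 ± 0.40 in KO and 1.57 ± 0.41 in WT mice. Of 14 further genes of pancreatic acinar cells, 12 were in neither fit, among them Cpa1, Prss2 and Pnlip. The pair that was present, Cela1 and Pnliprp1, passed the test in neither genotype. Lyz2, the lysozyme of macrophages, had 1.55 ± 0.33 in KO and 2.19 ± 0.44 in WT mice at levels of 7.75 to 36.4 CPM in KO GFP-low and 18.6 to 65.8 CPM in WT GFP-low libraries. Lyz1 and Lyz2 share 16.1% of the 50-base stretches of Lyz1, and reads from those stretches cannot be told apart. The defining macrophage genes Csf1r, Adgre1, C1qa, C1qb and C1qc were in neither fit. Of the 5 myeloid genes measured, Itgam rose with Lyz2, Cd14 fell, and Ctss and Cd68 did not pass. The summed level of the 5, Lyz2 included, was 56.3 to 84.7 CPM in KO GFP-low, 68.4 to 106.6 in WT GFP-low, 49.0 to 72.2 in KO GFP-high and 49.6 to 65.3 CPM in WT GFP-high libraries. Its part in the Lyz2 difference was not tested.

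**Figure D3:**
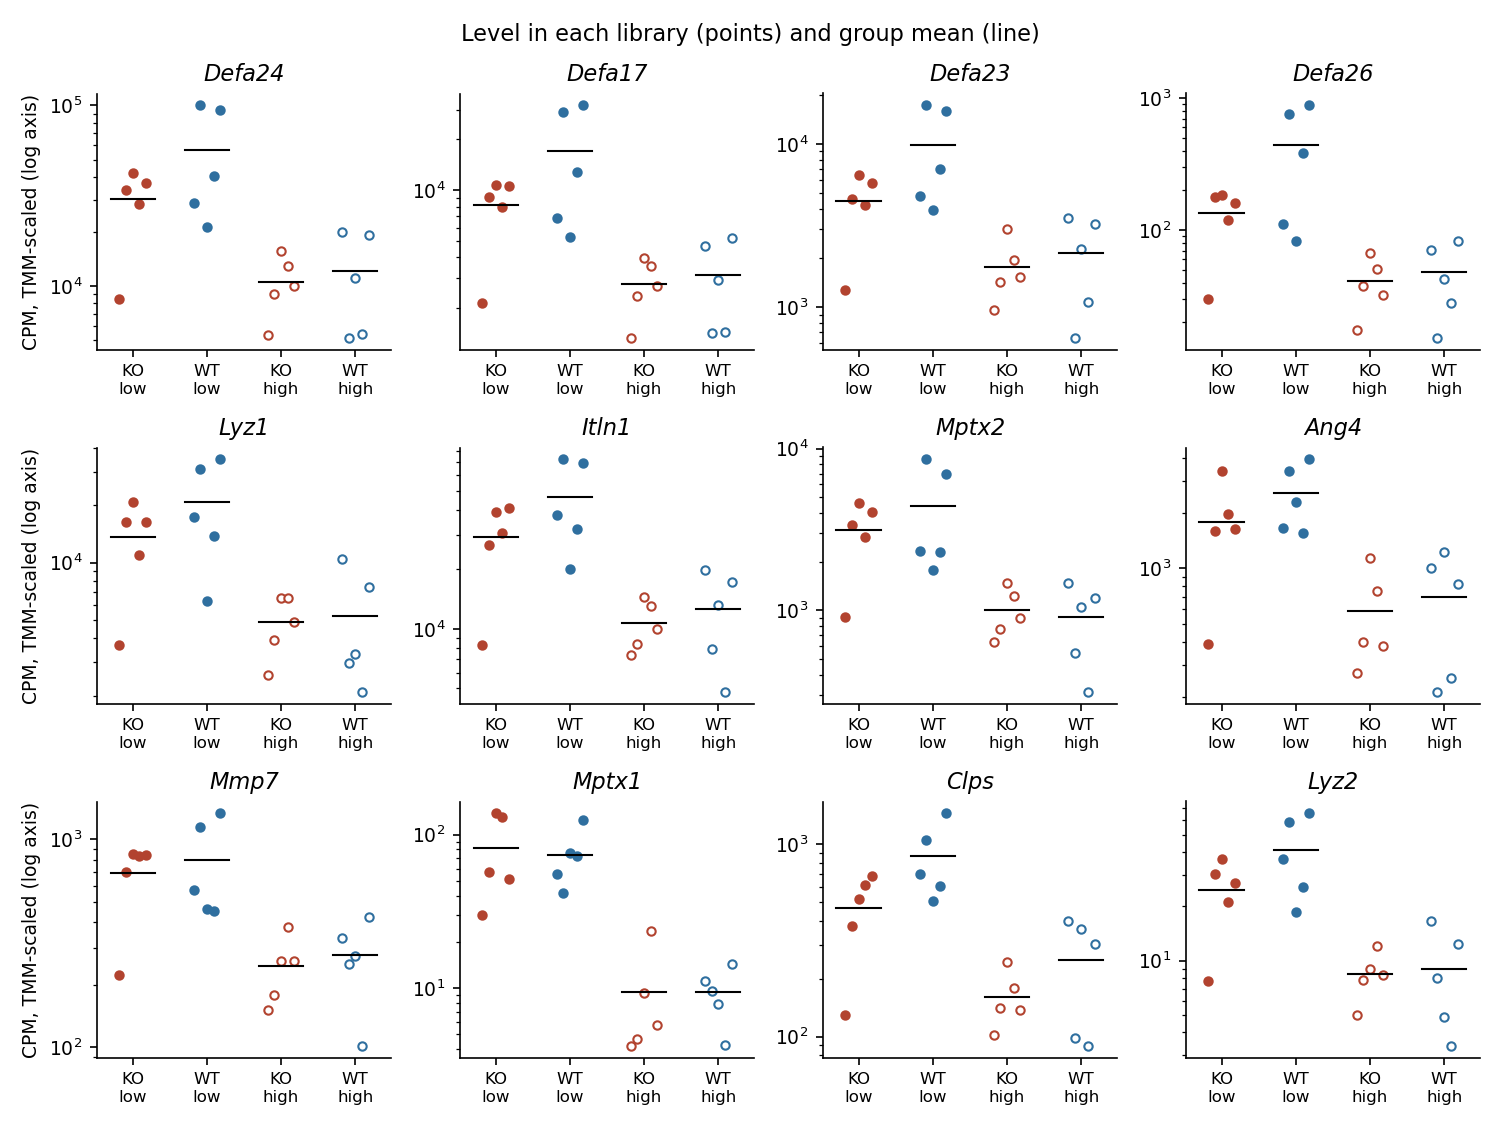
CPM with TMM scaling (log axis) of 12 members in KO GFP-low, WT GFP-low, KO GFP-high and WT GFP-high libraries; filled and open points are single GFP-low and GFP-high libraries and lines are group means (n = 5). KO mouse 2 is the low filled point in the KO GFP-low column of every panel, and Mptx1 separates the populations fully.

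The shares of the largest sequence groups were steadier than the amount of defensin counts. Defa24 alone held 34.9 to 41.3% of defensin counts in KO GFP-low, 37.0 to 41.2% in WT GFP-low, 35.8 to 40.0% in KO GFP-high and 37.3 to 41.4% in WT GFP-high libraries. The whole Defa24 group held 61.0 to 70.3%, 63.6 to 71.6%, 62.2 to 70.4% and 62.3 to 74.5% in the same order of groups. The Defa20 group held 11.7 to 18.0% in KO GFP-low, 10.5 to 15.2% in WT GFP-low, 11.1 to 19.8% in KO GFP-high and 8.88 to 18.2% in WT GFP-high libraries. Both ranges overlapped between all 4 groups. Small shares varied more. In WT GFP-low libraries Defa26 held 0.145 to 0.367% and Defa27 0.0230 to 0.0708% of defensin counts. The effect on these shares of dividing reads between near copies was not tested.

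**Figure D4:**
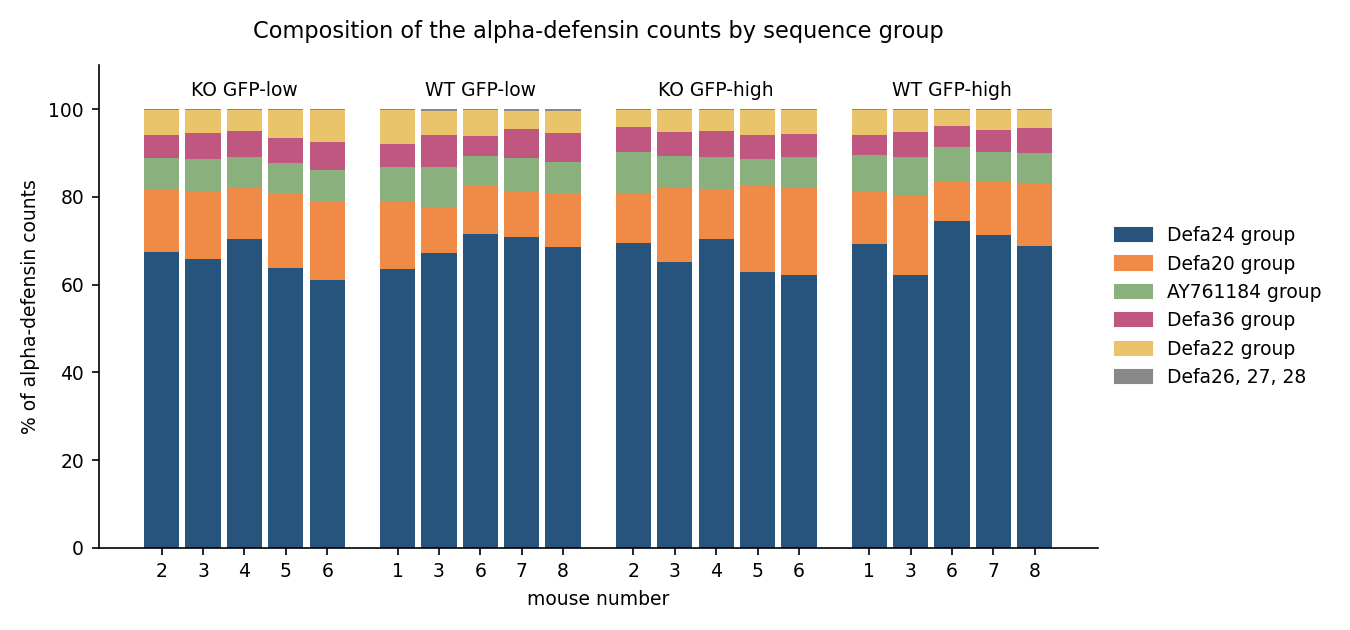
Percent of alpha-defensin counts (vertical axis) held by each sequence group in the 20 libraries, by group and mouse number. The Defa24 group holds 61.0% to 74.5% in every library, and the order of the 2 largest groups is the same in all.

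The other members were also set against the defensin sum, which depends less than single entries on how reads were assigned to copies. Per 100 defensin counts, Lyz1 had 14.2 to 20.2 counts in KO GFP-low, 11.5 to 22.7 in WT GFP-low, 16.5 to 19.0 in KO GFP-high and 12.3 to 21.6 in WT GFP-high libraries. Itln1 had 30.4 to 39.7, 26.8 to 49.4, 35.3 to 54.7 and 35.2 to 57.5 in the same order. Mptx2 had 3.68 to 4.49 in KO GFP-low and 2.21 to 3.42 in WT GFP-low libraries, which did not overlap, and 3.20 to 4.72 in KO GFP-high and 2.30 to 3.97 in WT GFP-high libraries, which did. It is 1 of 9 such ratios, singled out after its values were seen and not tested. Mptx1 had 0.0480 to 0.168 in KO GFP-low, 0.0153 to 0.147 in WT GFP-low, 0.0196 to 0.0667 in KO GFP-high and 0.0228 to 0.0696 in WT GFP-high libraries.

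Genes that regulate Paneth cells or mark their surface did not all move with the granule genes. Of 18 measured, 11 passed as higher in GFP-low cells of KO mice, 2 as lower, and 5 missed the threshold; the list's median was 1.38 on the log2 scale. In WT mice 12 were higher, 2 were lower and 4 missed it, and the median was 1.27. Rises included Xbp1, a transcription factor of the secretory stress response (1.53 ± 0.12 in KO and 1.28 ± 0.16 in WT mice), Dll4, a Notch ligand (2.06 ± 0.19 in KO and 1.50 ± 0.24 in WT mice), and Spdef, a factor of secretory maturation (2.57 ± 0.31 in KO and 2.00 ± 0.29 in WT mice). Sox9, a factor required for Paneth cells in mice that stem cells also carry, fell by 1.66 ± 0.10 in KO and by 1.21 ± 0.15 in WT mice. Other secreted antimicrobial proteins rose in 8 of 9 cases in each genotype, led by the lectin-like Reg1 (4.02 ± 0.23 in KO and 4.34 ± 0.25 in WT mice). All 16 genes of protein folding and secretion rose in each genotype, with medians of 1.17 and 1.11.

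Markers of other mature cells rose in the same comparison. All 10 goblet cell genes rose in both genotypes, with medians of 3.69 in KO and 3.16 in WT mice. Their summed level was 25793 to 56131 CPM in KO GFP-low and 2484 to 4701 CPM in KO GFP-high libraries, and 30663 to 76492 CPM in WT GFP-low and 2372 to 6008 CPM in WT GFP-high libraries. Of 10 enterocyte genes 9 rose in each genotype (medians 3.18 and 3.79), and all 10 enteroendocrine genes rose (3.47 and 2.80). These medians exceeded those of the granule genes. Of 7 tuft cell genes 6 rose in KO and 7 in WT mice (2.63 and 1.78), and of 3 T cell genes measured none passed in either genotype. All 12 stem cell genes fell, with medians of -2.38 in KO and -2.15 in WT mice. The part of cell composition in the granule gene differences was not tested.

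The comparison of KO with WT mice in GFP-low cells asked whether loss of Itgb7 came with other Paneth granule levels. Of the 30 members, 29 had negative estimates in KO cells and none passed the test. edgeR called 0 of 30 in either direction (smallest adjusted p 0.744), against 0.00849% of 11778 genes, a single gene that is not a member (Arhgef10). Without adjustment 6 members had p under 0.05, all lower in KO, which is 6 of 30 against 3.39% of all genes lower at that cut. Defensin entries are near copies that share reads, so neither the 29 nor the 6 are separate observations. DESeq2 called 0 members, where it called 12 of all genes, and 7 members had an unadjusted p under 0.05. The share of all genes at that unadjusted cut was not counted for DESeq2. The members' median log2 fold change was -0.78 and that of all genes -0.00. The summed defensins averaged 7.34% ± 3.02 of counts in KO and 12.0% ± 6.69 in WT libraries (SD, n = 5 each). The log2 ratio of these mean shares was -0.71. Fitted as 1 summed feature with edgeR, which scales by TMM, the log2 fold change was -0.93 ± 0.48.

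The 6 members were Defa26 (-1.72 ± 0.62), Defa-rs7 (-1.35 ± 0.51), Defa5 (-1.19 ± 0.55), Defa29 (-1.14 ± 0.52), Defa23 (-1.14 ± 0.46) and Clps (-0.89 ± 0.38), and their adjusted p ran from 0.744 to 0.785. Clps had 129, 378, 519, 614 and 682 CPM in KO mice and 703, 1052, 507, 609 and 1452 CPM in WT mice. Groups overlapped for all 30 members, and the share of all genes with overlapping groups was not counted. Defa24 had an estimate of -0.91 ± 0.47, Defa17 -1.07 ± 0.51, Lyz1 -0.60 ± 0.46, Itln1 -0.67 ± 0.41, Ang4 -0.52 ± 0.42, Mptx2 -0.47 ± 0.48 and Mmp7 -0.20 ± 0.37. Mptx1, at 0.14 ± 0.39, was the single positive estimate. The size depended on single libraries. The members' median was -0.53 without KO mouse 2, -0.50 without WT mouse 3 and -0.52 without WT mouse 8, and reached -1.01 without WT mouse 6. Without the same libraries the log2 ratio of mean defensin shares, -0.71 with all libraries, was -0.48, -0.45, -0.50 and -0.90.

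In GFP-high cells the groups lay closer together. edgeR called 0 of 30 members and 0 at an unadjusted p under 0.05, against 0% of 11745 genes called and 4.98% lower in KO at that unadjusted cut. DESeq2 also gave 0 members called, where it called 143 of all genes, and 0 members at an unadjusted p under 0.05. Estimates were negative for 17 members and positive for 13, with a median of -0.08 (-0.28 to 0.16 on leaving out 1 library), and ran from -0.64 ± 0.38 (Clps) to 0.35 ± 0.51 (Defa27). The summed defensins averaged 3.12% ± 1.08 in KO and 3.26% ± 1.82 in WT libraries. Fitted as 1 summed feature with edgeR, their log2 fold change was -0.12 ± 0.36. The log2 ratio of the mean defensin shares, -0.063, was positive without KO mouse 2 (0.11), WT mouse 1 (0.18) or WT mouse 8 (0.14). Defa24 had an estimate of -0.20 ± 0.37 with a 95% interval from -1.0 to 0.60, Lyz1 -0.10 ± 0.39 with an interval from -0.94 to 0.73, and Mmp7 -0.17 ± 0.31 with an interval from -0.83 to 0.49. Pnliprp2 had -0.47 ± 0.41. These intervals reach changes of the size seen in GFP-low cells, so the test does not show equal levels.

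**Figure D5:**
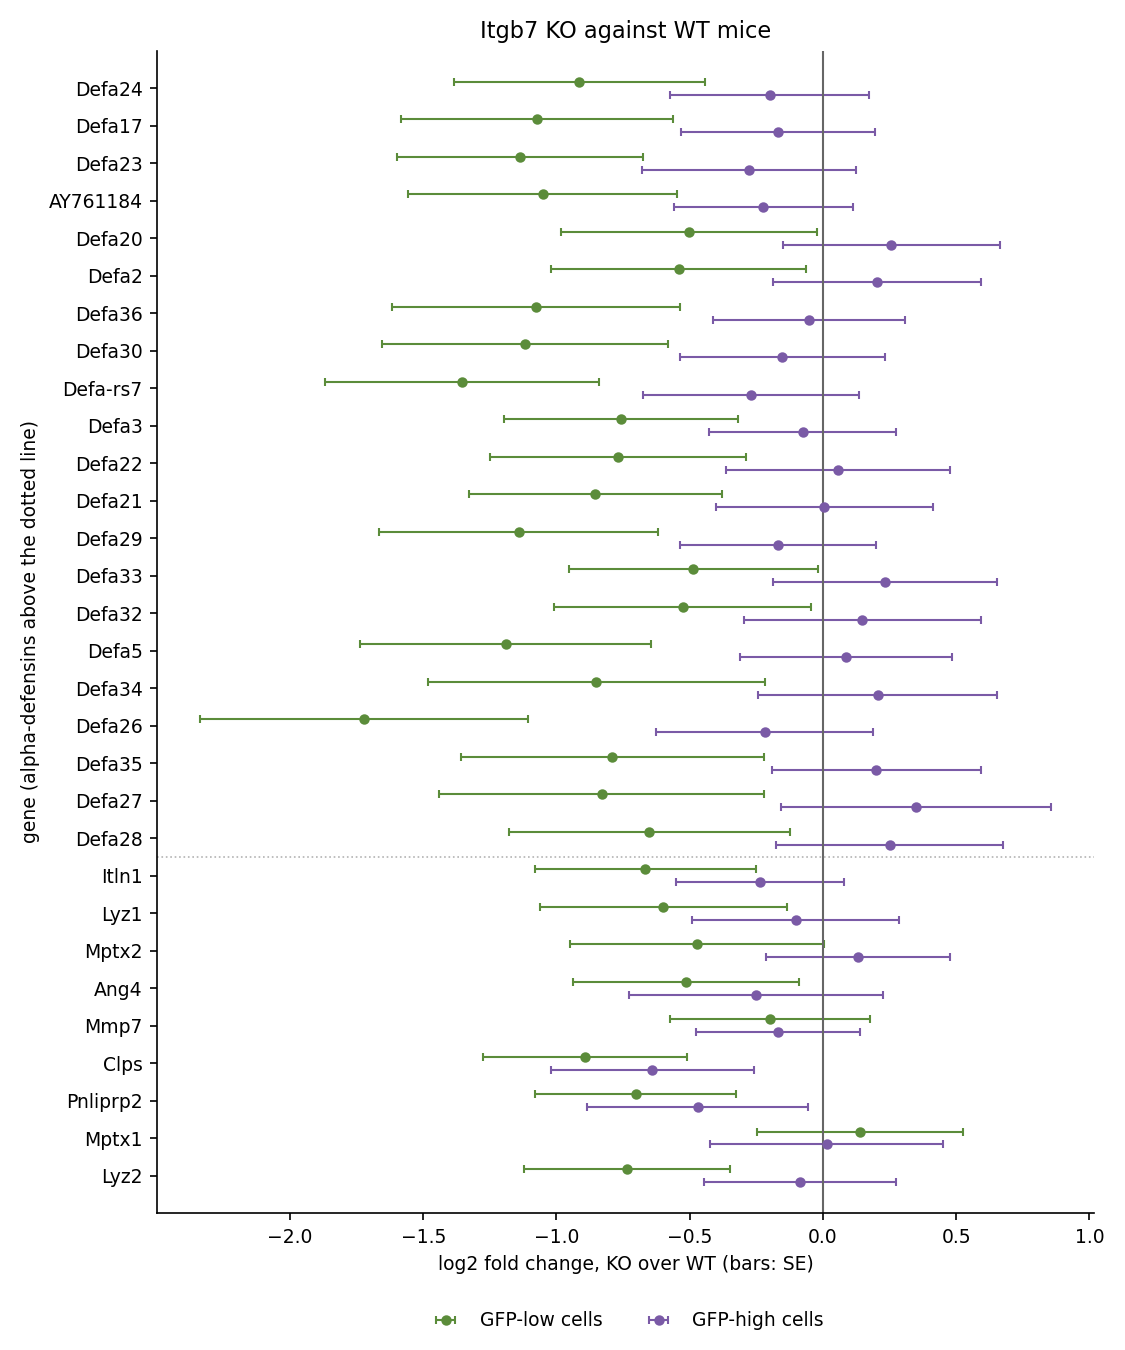
Log2 fold change of KO over WT mice (horizontal axis, bars show SE) for the 30 members, GFP-low cells above GFP-high cells in each row, from edgeR fits on 10 libraries each. In GFP-low cells 29 estimates are negative, in GFP-high cells 17, and no member passed the test in either population.

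The difference between both KO effects was tested itself over all 20 libraries, without pairing the libraries of a mouse. With that pairing 0 members were called as well. edgeR called 0 of 30 members (smallest adjusted p 1) and 0 of 11296 genes (0%), with 0 members at an unadjusted p under 0.05, where 1.68% of all genes were lower at that cut. DESeq2 gave 0 and 0. The median interaction estimate was -0.79, the range -1.50 to 0.12, and the standard errors 0.54 to 0.89. A larger KO effect in GFP-low cells was therefore not shown.

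No gene of the other lists was called by edgeR in either KO against WT comparison, and DESeq2 calls were not counted over these lists. Among the 18 Paneth cell regulators the GFP-low median was -0.15, and the smallest p belonged to Sox9 (-0.71 ± 0.13, adjusted p = 0.37 from edgeR), Atoh1, the switch for secretory fate (-1.25 ± 0.41, adjusted p = 0.744), and Nupr1 (-0.76 ± 0.39, adjusted p = 0.793). Their summed level was 916 to 2231 CPM in KO and 1545 to 2953 CPM in WT GFP-low libraries, lowest in KO mouse 2 and highest in WT mouse 3, which were also lowest and highest in defensin share among GFP-low libraries. Goblet cell genes had a GFP-low median of 0.01, and their sum was 25793 CPM in KO mouse 2, 32184 CPM in WT mouse 3 and 76492 CPM in WT mouse 8. KO mouse 2 was thus lowest among GFP-low libraries for goblet cell genes too. It was also lowest there for the sums of enteroendocrine (975 CPM) and protein folding genes (6595 CPM), but not of enterocyte genes (2536 CPM). Enterocyte genes had a GFP-low median of -0.57, led by Fabp1 (-1.10 ± 0.25, adjusted p = 0.55). Their summed level was 1450 to 2536 CPM in KO and 2198 to 4049 CPM in WT libraries. In GFP-high cells the medians were -0.22 for Paneth regulators and -0.57 for goblet cell genes, with Zg16, a goblet cell lectin, at -0.88 ± 0.26 (adjusted p = 0.254). Enteroendocrine genes had medians of -0.01 in GFP-low and -0.96 in GFP-high cells, and tuft cell genes -0.34 and -1.05. T cell genes had medians of 0.83 over 3 genes in GFP-low and 1.01 over 4 genes in GFP-high cells. The medians of myeloid genes were 0.01 in GFP-low and 0.14 in GFP-high cells, those of acinar genes -0.61 and -0.25, and those of stem cell genes -0.24 and -0.01. In GFP-high cells enterocyte genes had a median of 0.04. The part of these lists in the granule gene values was not tested. Other antimicrobial proteins had medians of -0.13 in GFP-low and -0.11 in GFP-high cells. Protein folding genes had medians of -0.04 in GFP-low and -0.12 in GFP-high cells.

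Within the cluster span, 4 further entries outside the naming rule were held by the tables: Gm14851, Gm15292, Gm15293 and Gm7861. All 4 rose in GFP-low cells in KO mice (1.43 to 1.72) and in WT mice (2.24 to 3.14). In GFP-low cells their KO over WT estimates ran from -1.67 to -0.73, and none passed. Genes up to 5 Mb on either side were set beside them. Of 45 in KO mice, 17 were called in either direction between populations, against 50.5% of all genes, with a median of -0.03. Of 45 in WT mice 13 were called, against 43.4% of all genes, with a median of -0.10. For KO over WT in GFP-low cells edgeR called 0 of 45, against 0.00849% of all genes, with a median of -0.02. At an unadjusted p under 0.05, 4 of the 45 were lower in KO, against 3.39% of all genes. In GFP-high cells edgeR called 0 of 46, against 0% of all genes, with a median of 0.0095. There 4 of the 46 were lower in KO at that unadjusted cut, against 4.98% of all genes. Arhgef10, the gene called in GFP-low cells, lay outside this window. Its KO over WT estimates were -2.30 ± 0.21 in GFP-low and -1.56 ± 0.34 in GFP-high cells (edgeR adjusted p = 0.00069 and 0.167).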

How the data were processed

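RNA-seq gene tables of 20 libraries were used, 1 for GFP-low and 1 for GFP-high cells. The authors deposited expected counts per gene, of which 13.7% were not whole, and they were rounded to whole counts here. TopHat2, RSEM, Bowtie2 and the build mm10 are named per the submitters' processing notes. No source used here gives versions, roles, read length or strandedness. Library totals ran from 20900412 to 27838403 counts, and no pair of libraries within a group agreed within sampling noise (smallest chi-square per gene 19.4 over 40 pairs).

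Each comparison was fitted on its own libraries with edgeR 4.0.16 in R 4.3.3 (filterByExpr with a minimum count of 10, TMM scaling, quasi-likelihood test, Benjamini-Hochberg adjustment over all genes, threshold 0.05). The interaction used genes in both tables. DESeq2 1.42.0 was an alternative, as were other scalings and filters, a replicate block, summed defensins and leaving out each library. Errors of fold changes are SE. The fitting code was tested on simulated data. Both populations of a mouse are paired per the labels, and their deviations from the group means correlated at r 0.169 to 0.625, best with the own mouse in 10 of 10 mice.

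Members and gene lists (stem, goblet, enterocyte, enteroendocrine, tuft, myeloid, T and acinar cells, Paneth regulators, antimicrobials, protein folding) were chosen with earlier results of these data known. Every member is named, with values per library for the summed defensins, Lyz1, Mmp7, Ang4, Itln1, Mptx2 and the 3 most abundant defensins. Defa26, Clps and Mptx1 were added to these after their values were seen. From other lists, genes were named mainly among those with the 3 smallest p in a comparison, and not every such gene is named. Percent shares are of all counts in a table.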

Additional observations from a re-analysis of the deposited data

Results flagged for a closer look

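Each member, the summed defensins and all members summed were examined within each group for a single library far from the other 4, a check that chance meets in about 1 in 20 groups. Of 128 checks, 120 of single members and 8 of sums, 5 met it, all of single members. In KO GFP-low cells mouse 2 lay apart for Defa27 (8.92 CPM, others 43.3 to 49.4), Defa28 (1.26 CPM, others 5.33 to 6.86) and Mmp7 (222 CPM, others 700.0 to 854.5). In KO GFP-high cells mouse 5 lay apart for Mptx1 (23.5 CPM, others 4.18 to 9.31). In WT GFP-high cells mouse 8 lay apart for Defa27 (32.8 CPM, others 4.14 to 10.4).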

How the results depend on the processing

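Alternatives were run for counts of calls, medians, the summed defensins and 12 members, not for the other 18 singly. Of 1167 alternative values, 1124 counted as unchanged. Single members had to keep their sign and their side of the threshold. Counts of calls had to stay within a fixed factor of the main count. Medians had to stay within the members' median SE, and ratios of summed defensins within the pooled SD between libraries. Of the 1124, 6 changed sign, all of them values with no test in GFP-high cells. With the replicate block, 9 members were called between KO and WT GFP-high cells (0 without it). None of them was among the 12 members followed singly, and their directions are not given here. That block rests on the numbers 3 and 6, which name different animals in each genotype, so they share only a number. The KO estimate then came only from mice 3 and 6 of each genotype. Their defensin shares in GFP-high cells were 2.68 and 3.19% in KO and 1.57 and 2.92% in WT mice. In GFP-low cells they were 8.50 and 9.60% in KO and 19.7 and 5.03% in WT mice. It called 36 genes in GFP-low and 122 in GFP-high cells, where DESeq2 called 12 and 143 and edgeR without the block 1 and 0. With the block the members' median was -0.21 in GFP-low and 0.36 in GFP-high cells. Among those 12 members, estimates that changed sign under it were Lyz1 (0.23), Mmp7 (0.079) and Mptx1 (-0.049) in GFP-low cells, and Lyz1 (0.49), Defa24 (0.33), Defa17 (0.32), Defa23 (0.29), Defa26 (0.44), Defa-rs7 (0.30) and Mptx1 (-0.74) in GFP-high cells. The cause was not tested. Pairing the libraries of a mouse kept 30 of 30 members called between populations in each genotype. With defensins summed, 10 of 10 features were called in KO and in WT mice, since fewer features were tested. Leaving out 1 library changed signs for Mmp7 (-0.35 to 0.060) and Mptx1 (-0.15 to 0.40) in GFP-low cells. In GFP-high cells it did so for Lyz1 (-0.31 to 0.32), Mmp7 (-0.38 to 0.037), Ang4 (-0.64 to 0.044), Mptx2 (-0.090 to 0.37), Defa24 (-0.40 to 0.054), Defa17 (-0.35 to 0.088) and Defa26 (-0.47 to 0.076), with Mptx1 at -0.65 to 0.22. None of these passed the threshold. In GFP-high cells the KO over WT log2 ratio of summed defensins (-0.24 to 0.18) and the members' median (-0.28 to 0.16) also changed sign, each without KO mouse 2, WT mouse 1 or WT mouse 8. Read sharing between copies limits every single defensin value.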
